A study of Homo sapiens with 18 samples.

Results

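The mitochondrial genome of human cells carries 37 genes, and all 37 were present among the 57445 genes of the count table of MiaPaCa-2, a long-established human cell line from a pancreatic carcinoma. They were chosen by their symbols, which start with MT-, and comprise 13 protein-coding genes, 2 ribosomal RNA genes and 22 transfer RNA genes. The 18 libraries form 6 groups of 3, all labelled wild type. The parental line was kept in vitro and never injected. The other 5 groups, together called the injected libraries here, carry the in vivo label with a passage number. They were recovered after injection into the sciatic nerve, as laggers of passage 1 or as leaders of passages 1, 2, 3 and 4. Between passages the leaders were grown in culture, and a part of them was injected again. In the study, leaders are the cells that moved farthest along the nerve and laggers those that stayed behind. No injected group lacks the in vivo step and no parental library has it, so injection, recovery and passage cannot be told apart as sources of a difference from the parental line. The labels do not state whether replicates are separate cultures or animals. The p-values reflect only how these samples spread, which may be technical.

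Mitochondrial DNA is transcribed from both strands into long precursors by its own polymerase, POLRMT, with the factors TFAM and TFB2M. Transfer RNAs that punctuate the precursors are cut out, which frees the 2 rRNAs and the mRNAs in between, and most of these RNAs then receive a short poly(A) tail. The mRNAs encode core subunits of respiratory complexes I, III and IV and of the ATP synthase, complex V, while the remaining subunits, the proteins of the mitochondrial ribosome and every transcription and processing factor come from nuclear genes.

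On GRCh38, in the GENCODE 29 annotation whose versioned identifiers equal those of the file for all 37 genes, the members lie on chromosome M. The deposited counts rest on a build not given in the sources used here. Of the 13 mRNA genes, 12 are read from the + strand, here called heavy-strand mRNAs, and MT-ND6 alone from the - strand. The 12 heavy-strand mRNAs include 2 overlapping pairs, MT-ATP8 with MT-ATP6 over 46 bases and MT-ND4L with MT-ND4 over 7 bases, and MT-ATP6 meets MT-CO3 in 1 base. A read that lies in an overlap matches both genes, and its gene of origin cannot be told apart. How the counting handled such reads is not stated. The count table keeps an entry for ambiguous reads, at 1.60% to 2.92% of a library. The library kit does not mark strand, so reads from the strands of a locus cannot be told apart either. The sequences that bear on these limits are shown from GENCODE 29. MT-ATP8 is the shortest mRNA gene, with its overlap with MT-ATP6 in capitals (chrM:8366-8572, + strand). MT-ND4L has the overlap with MT-ND4 in capitals (chrM:10470-10766, + strand). The third is the longest run of MT-CO1 that the nuclear copy MTCO1P12 holds without a difference (chrM:6690-6934, + strand, 245 bases). The fourth, MT-TL1, is the transfer RNA gene with the most counts (chrM:3230-3304, + strand).
MT-ATP8: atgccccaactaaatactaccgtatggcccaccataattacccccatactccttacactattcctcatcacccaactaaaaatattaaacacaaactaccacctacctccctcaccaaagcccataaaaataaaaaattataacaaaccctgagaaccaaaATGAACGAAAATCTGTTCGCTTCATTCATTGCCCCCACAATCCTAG
MT-ND4L: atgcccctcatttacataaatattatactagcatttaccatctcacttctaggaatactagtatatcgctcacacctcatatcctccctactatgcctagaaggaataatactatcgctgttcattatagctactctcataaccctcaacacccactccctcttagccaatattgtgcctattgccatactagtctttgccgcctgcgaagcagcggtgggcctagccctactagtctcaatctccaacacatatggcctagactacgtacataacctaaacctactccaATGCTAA
MT-CO1 run shared with MTCO1P12: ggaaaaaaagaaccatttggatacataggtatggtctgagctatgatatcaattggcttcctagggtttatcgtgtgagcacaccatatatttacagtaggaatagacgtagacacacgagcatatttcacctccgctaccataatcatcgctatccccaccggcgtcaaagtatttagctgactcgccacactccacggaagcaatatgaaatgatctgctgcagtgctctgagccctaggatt
MT-TL1: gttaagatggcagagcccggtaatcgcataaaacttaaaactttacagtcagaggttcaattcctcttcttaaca

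Nuclear copies of mitochondrial sequence limit how exactly some members can be counted. Of all windows of 50 bases, the length of 1 read, 49.5% of MT-CO1 also occurred in a nuclear transcript of GENCODE 29, almost all of them in MTCO1P12. The share was 46.7% for MT-ATP6 and 43.6% for MT-ND2, 30.6% for MT-CO3, 29% for MT-CO2 and 22.1% for MT-ND1. It was 17.9% for MT-ND6, 14.0% for MT-RNR2, 8.23% for MT-ATP8 and under 5% for MT-ND5, MT-ND4 and MT-CYB. No window of MT-RNR1, MT-ND3, MT-ND4L or a transfer RNA gene was found in a nuclear transcript. The search covered annotated transcripts and not the rest of the nuclear genome, so copies outside them, also of transfer RNA genes, could not be found. These shares are no ranking by exposure to all nuclear copies and no estimate of counts lost or gained.

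Counts assigned to genes ran from 15113462 to 39373248 per library. Entries of the table that name no gene took 27.6% to 60.6% of a library. Reads aligned to more than 1 place took 13.9% to 16.4% of the entries in parental libraries and 20.2% to 32.6% in injected ones. KRT8, KRT18 and VIM, which MiaPaCa-2 cells express, were high in every group, and EPCAM was near 0. Passage 3 leader replicate 2 stood apart, with 24.8% of reads unaligned and 394150 counts of the globin gene HBB, so the results on passage 3 and over the leader passages are given with and without it.

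The 37 genes held a small share of the parental libraries and a several-fold larger share of every injected library. In parental replicates 1, 2 and 3 they took 0.873, 0.714 and 0.472% of gene counts. Laggers of passage 1 had 8.47, 6.65 and 5.91%, and leaders of passage 1 had 5.60, 8.57 and 6.23%. Leaders of passage 2 had 3.80, 3.36 and 3.90%, those of passage 3 3.38, 3.09 and 2.73% and those of passage 4 3.33, 2.59 and 1.95%. All 15 injected libraries lay above all 3 parental ones, and no passage 2, 3 or 4 library reached the lowest of passage 1. The mean log2 share was 2.66 higher in the injected libraries, a 6.34-fold ratio (exact permutation test, two-sided, p = 0.00245, the smallest that 15 libraries against 3 allow). The 95% Wilson interval of a single library's share was narrow next to the spread between libraries, for example 0.870% to 0.876% in parental replicate 1, and covers counting error only. In RNA from a population of cells, fewer cells with a high level and a lower level in every cell cannot be told apart.

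**Figure D1:**
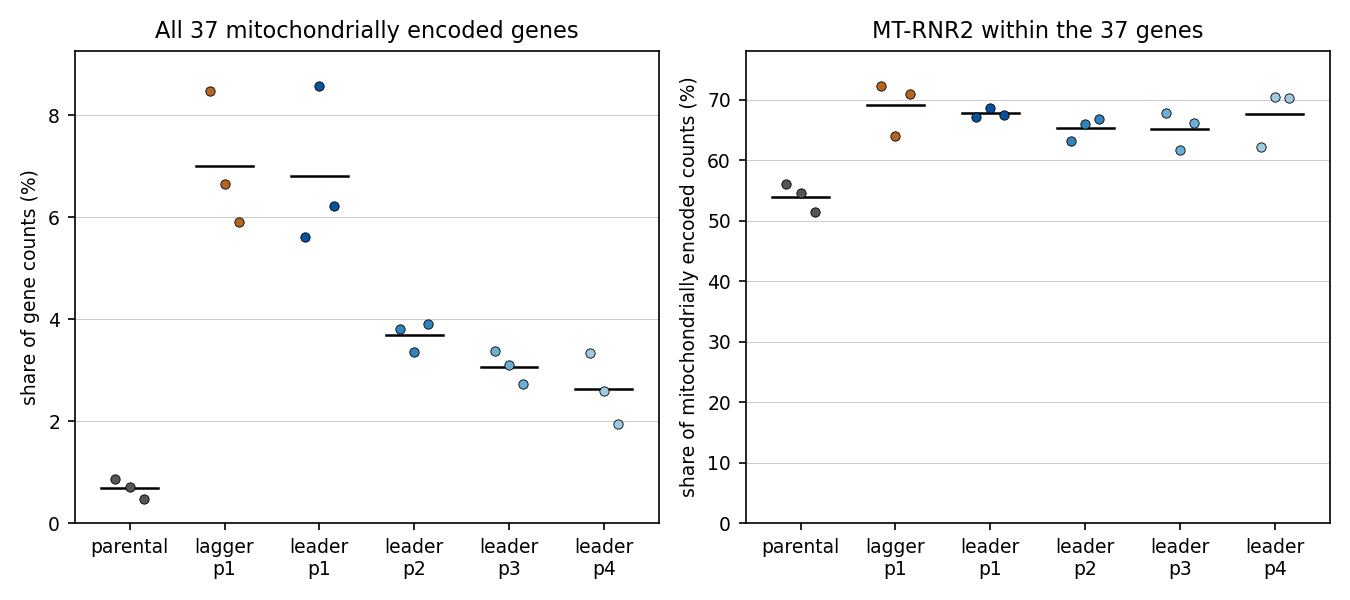
Share of gene counts held by the 37 mitochondrially encoded genes (left, %) and share of their counts held by MT-RNR2 (right, %) in 3 libraries of each group; points are libraries, ordered by replicate number, and black lines are group means. Every injected library lies above the parental ones in both panels, and the left panel falls from passage 1 to passage 4.

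The ribosomal RNAs accounted for most of these counts. MT-RNR2, the 16S rRNA of the large mitochondrial subunit, held 66.8% of all 16032758 member counts. Its level in CPM, counts scaled to a common library size with edgeR's TMM factors, was 4798, 3742 and 2600.5 in the parental libraries. It was 61092, 40587 and 44336 in laggers and 36104, 62530.2 and 39847 in leaders of passage 1. In leaders of passage 4 it was 20607, 18192 and 14466. No injected library overlapped the parental range, and passage 4 lay between the parental line and passage 1. MT-RNR1, the 12S rRNA of the small subunit, was 163, 111 and 80.0 CPM in parental libraries, 1272, 1229.5 and 1257 in laggers, 1181, 1805 and 1487 in leaders of passage 1 and 863, 734 and 523 in leaders of passage 4. In the edgeR quasi-likelihood fit of all 18 libraries, the log2 fold change against the parental line at passage 1 was 3.71 ± 0.26 (standard error, SE) for MT-RNR2 in laggers and 3.64 ± 0.26 in leaders, with Benjamini-Hochberg adjusted p of 1.02e-07 and 1.56e-07. For MT-RNR1 the values were 3.41 ± 0.27 and 3.66 ± 0.27. The rRNAs took 0.386% of gene counts on average in the parental line and 4.98% in laggers, while the 13 mRNAs went from 0.301% to 2.03%.

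All 15 rRNA and mRNA genes passed the filter on low counts, and all 15 were called higher at passage 1, in laggers and in leaders, at an edgeR adjusted p under 0.05. These contrasts share the parental libraries. The groups did not overlap for any of the 15, as for 22.9% of all genes tested on the higher side in laggers and 29.7% in leaders. Of all 16187 genes tested, 39.3% were called in laggers against the parental line in either direction and 21.5% were called higher. For leaders of passage 1 these shares were 45.7% and 23.2%. The median log2 fold change of the 15 was 3.05 in laggers and 3.07 in leaders, beside 0.09 and 0.07 over all genes tested.

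Complex I, the NADH dehydrogenase, draws 7 subunits from mitochondrial DNA, and their increases were unequal. MT-ND3, a small membrane subunit, rose from 1.87, 1.84 and 1.48 CPM in the parental libraries to 18.04, 26.1 and 19.5 in leaders of passage 1, a log2 fold change of 3.61 ± 0.29 (SE). MT-ND2 rose by 3.58 ± 0.31, MT-ND1 by 2.95 ± 0.25, MT-ND4 by 2.89 ± 0.28 and MT-ND4L by 2.73 ± 0.29 in the same contrast. MT-ND5, a core subunit of the proton-pumping arm, had 414, 375 and 346 CPM in the parental libraries, 1803, 1515 and 1174 in laggers and 1166, 1858 and 1180.3 in leaders of passage 1. Its log2 fold changes, 1.99 ± 0.24 and 1.89 ± 0.24, were the smallest of the 15 in both contrasts. MT-ND6, the only mRNA of the other strand, came next. Its parental libraries had 38.9, 36.9 and 30.9 CPM, laggers 189, 166 and 101 and leaders of passage 1 113, 181 and 126, with log2 fold changes of 2.10 ± 0.27 and 1.97 ± 0.27. MT-ND5 and MT-ND6 adjoin, the former ending at base 14148 and the latter lying at 14149 to 14673 on the opposite strand. In a comparison chosen after their values were seen, MT-ND6 had 9.39 ± 0.439 counts per 100 counts of MT-ND5 in the parental line (SD, n = 3) and 8.63 to 10.9 in all 18 libraries. Without strand, reads of MT-ND6 and of an RNA that continues from MT-ND5 on the other strand cannot be told apart.

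Complex III takes 1 subunit from mitochondrial DNA, cytochrome b, encoded by MT-CYB. MT-CYB had 287, 224 and 159.6 CPM in the parental line and 1554, 2414 and 1654 in leaders of passage 1, a log2 fold change of 3.07 ± 0.32. Complex IV, cytochrome c oxidase, takes its 3 catalytic core subunits from MT-CO1, MT-CO2 and MT-CO3. MT-CO1 was the most counted mRNA, at 1068, 999 and 726 CPM in the parental line, 6645, 6342 and 4609 in laggers and 4608, 7190.4 and 4628 in leaders of passage 1. Its log2 fold changes of 2.66 ± 0.28 and 2.56 ± 0.28, and those of MT-CO3 at 2.68 ± 0.26 and 2.74 ± 0.26, were in the lower part of the 15, whereas MT-CO2 rose by 3.05 ± 0.33 and 3.20 ± 0.33. For complex V, MT-ATP6, part of its proton channel, went from 89.2, 69.8 and 53.9 CPM to 678, 1199 and 751 in leaders of passage 1, by 3.63 ± 0.33. MT-ATP8, which shares its transcript with MT-ATP6 and had far fewer counts, went from 5.10, 3.93 and 6.29 to 39.5, 75.9 and 45.0, by 3.39 ± 0.42. Every fold change in these 3 complexes was called at an edgeR adjusted p of at most 2.82e-05 in laggers and 1.49e-05 in leaders.

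**Figure D2:**
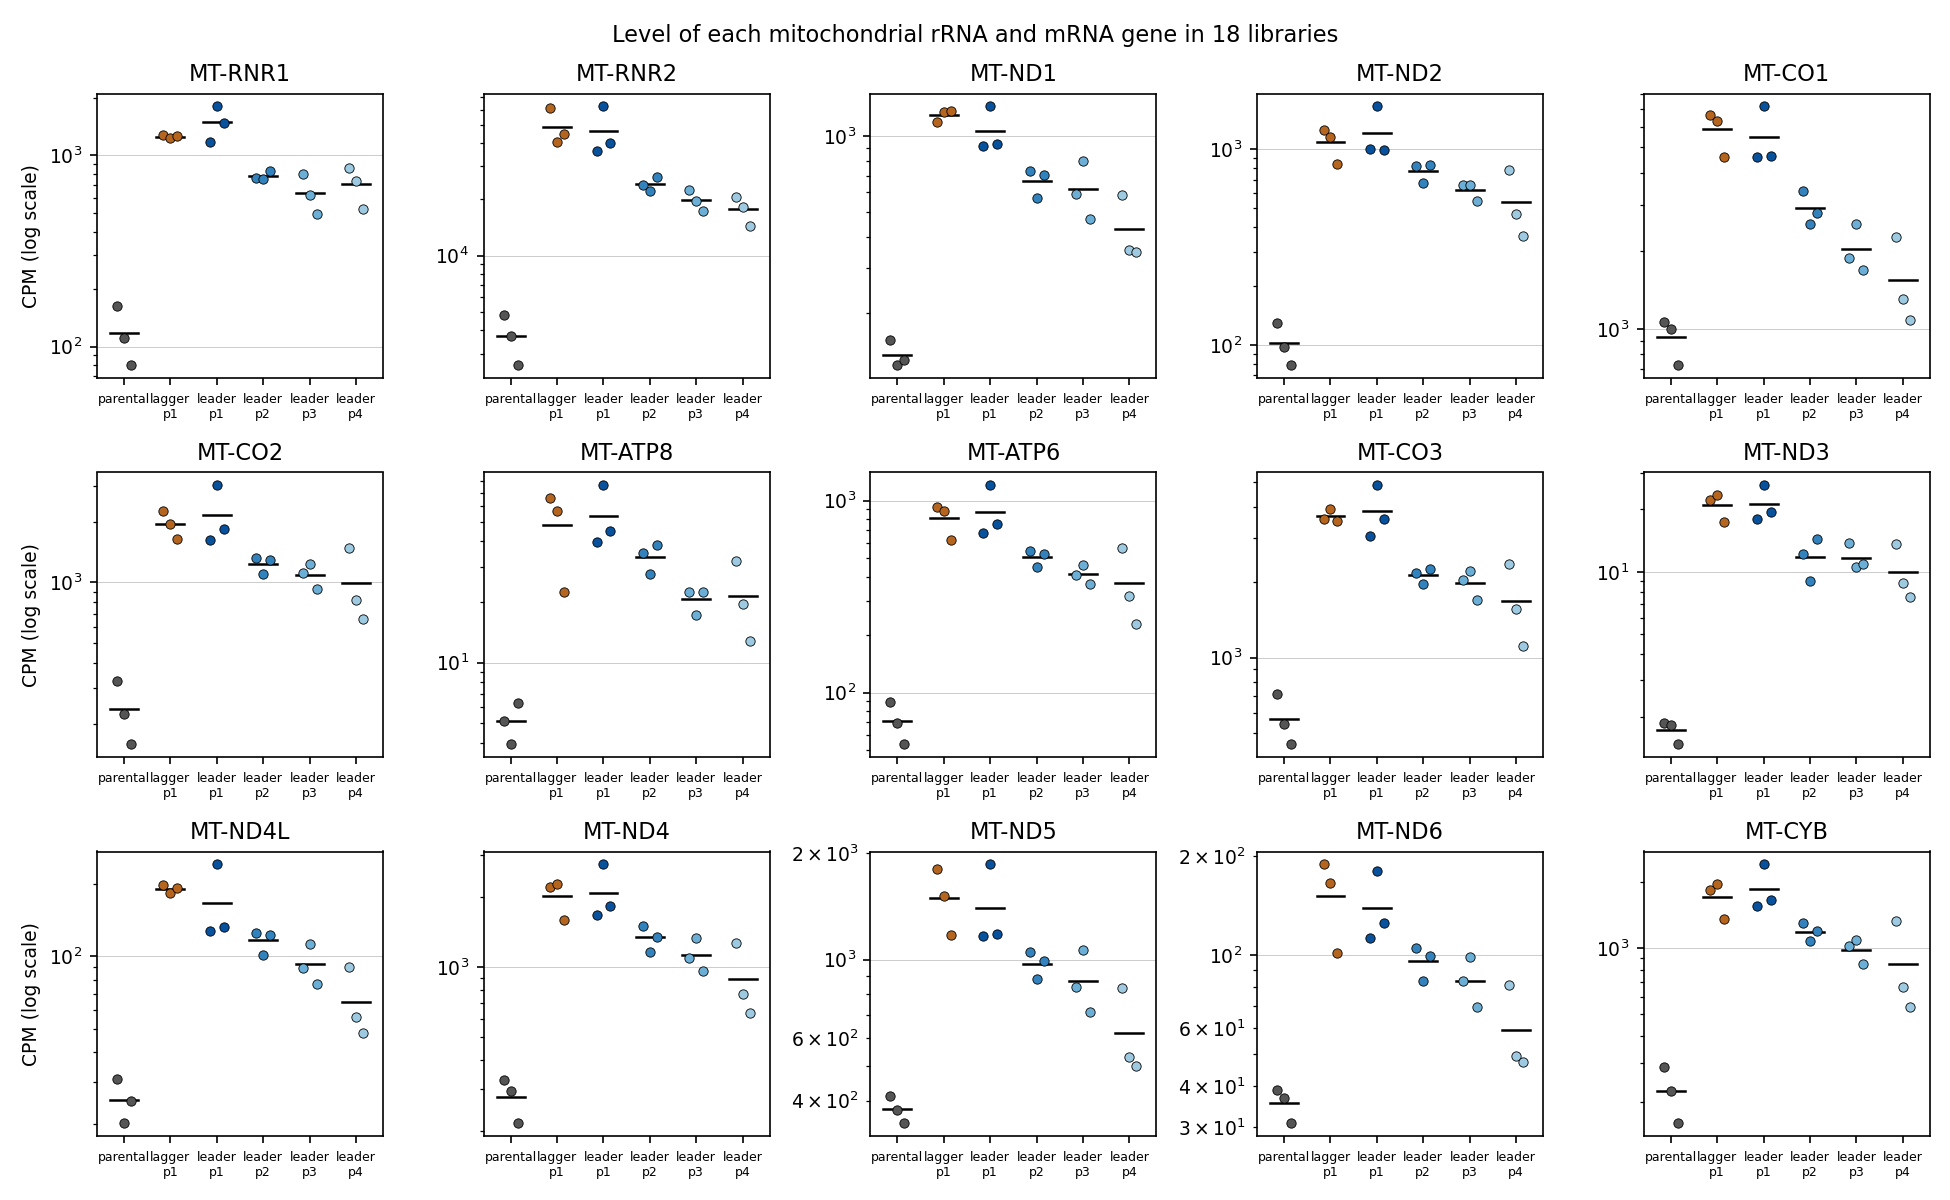
Level of each of the 15 mitochondrial rRNA and mRNA genes in CPM on a log axis whose range differs between panels, in genome order; points are the 3 libraries of a group, ordered by replicate number, and black lines are group means. In every panel the 3 parental libraries are the lowest, and every panel steps down between passage 1 and passage 2 of the leaders.

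Per kilobase of gene length, MT-RNR2 was first in the parental line, at 2382 CPM per kilobase, ahead of MT-CO3 at 729, MT-CO1 at 604 and MT-CO2 at 344. In leaders of passage 1 these 4 kept the same ranks among the 15, at 29609, 4883, 3551 and 3163 CPM per kilobase. MT-ND5 moved from rank 5 to rank 11. MT-RNR1 moved from rank 9 to rank 6. MT-ND3 was last in both groups, at 4.99 and 61.3 CPM per kilobase. Of the 346 bases of MT-ND3, no 50-base window lies in an annotated nuclear transcript, and the rest of the nuclear genome was not searched. The source of its low level was not tested.

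The unequal increases came with a different makeup of mitochondrial counts, measured as ratios within a library, which no scaling between libraries can affect. How fully the amplification captured each RNA was not measured, so these are ratios of counts and not of RNA amounts. The 2 rRNAs had 1.40, 1.29 and 1.14 counts for each count of the 12 heavy-strand mRNAs in the parental libraries, and 2.84, 1.95 and 2.70 in laggers. In leaders the ratio was 2.27, 2.42 and 2.35 at passage 1 and 1.85, 2.75 and 2.70 at passage 4. All 15 injected libraries were above the parental ones, by 0.83 in mean log2 ratio or 1.78-fold (exact permutation test, two-sided, Benjamini-Hochberg adjusted over 6 ratios, p = 0.00368). The ratio of MT-ND6 to the heavy-strand mRNAs was 0.0109, 0.0124 and 0.0131 in the parental libraries and 0.00685, 0.00681 and 0.00714 in leaders of passage 1. It was lower in all 15 injected libraries, by a mean log2 difference of -0.66, or 0.632-fold (adjusted exact permutation p = 0.00368).

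Among the 13 mRNAs, complex V mRNAs made up 0.0263, 0.0245 and 0.0253 of the counts, as fractions, in the parental libraries and 0.0433, 0.0476 and 0.0449 in leaders of passage 1. The injected libraries were higher in 15 of 15, by 0.82 in log2 or 1.77-fold, and the share of complex III, which is MT-CYB, was higher in 15 of 15 by 0.38 (adjusted exact permutation p = 0.00368 for each). Complex IV mRNAs were lower by 0.10 in log2, below the parental range in 10 of 15 libraries, an adjusted exact permutation p of 0.0176 that became 0.106 without parental replicate 1 or without parental replicate 2. The fraction of complex IV was 0.578 ± 0.0152 (SD, n = 3) in the parental line, 0.568 ± 0.00708 in laggers and 0.564 ± 0.00374 in leaders of passage 1, and 0.513 to 0.524 as group means in later passages. Complex I mRNAs as a class differed by -0.01 in log2 (adjusted exact permutation p = 0.900), with unequal values of its members. MT-ND5 made up 12.8% ± 1.53 (SD, n = 3) of mRNA counts in the parental line and 6.88% ± 0.197 in leaders of passage 1, and MT-ND2 3.38% ± 0.192 and 5.92% ± 0.321. Within complex IV, MT-CO1 went from 31.1% ± 1.80 of mRNA counts in the parental line through 26.9% ± 0.858 in leaders of passage 1 to 19.2% ± 0.335 in those of passage 4, and MT-CO2 from 7.70% ± 1.22 through 10.5% ± 0.722 to 12.1% ± 0.463. These single shares are descriptions without a test.

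**Figure D3:**
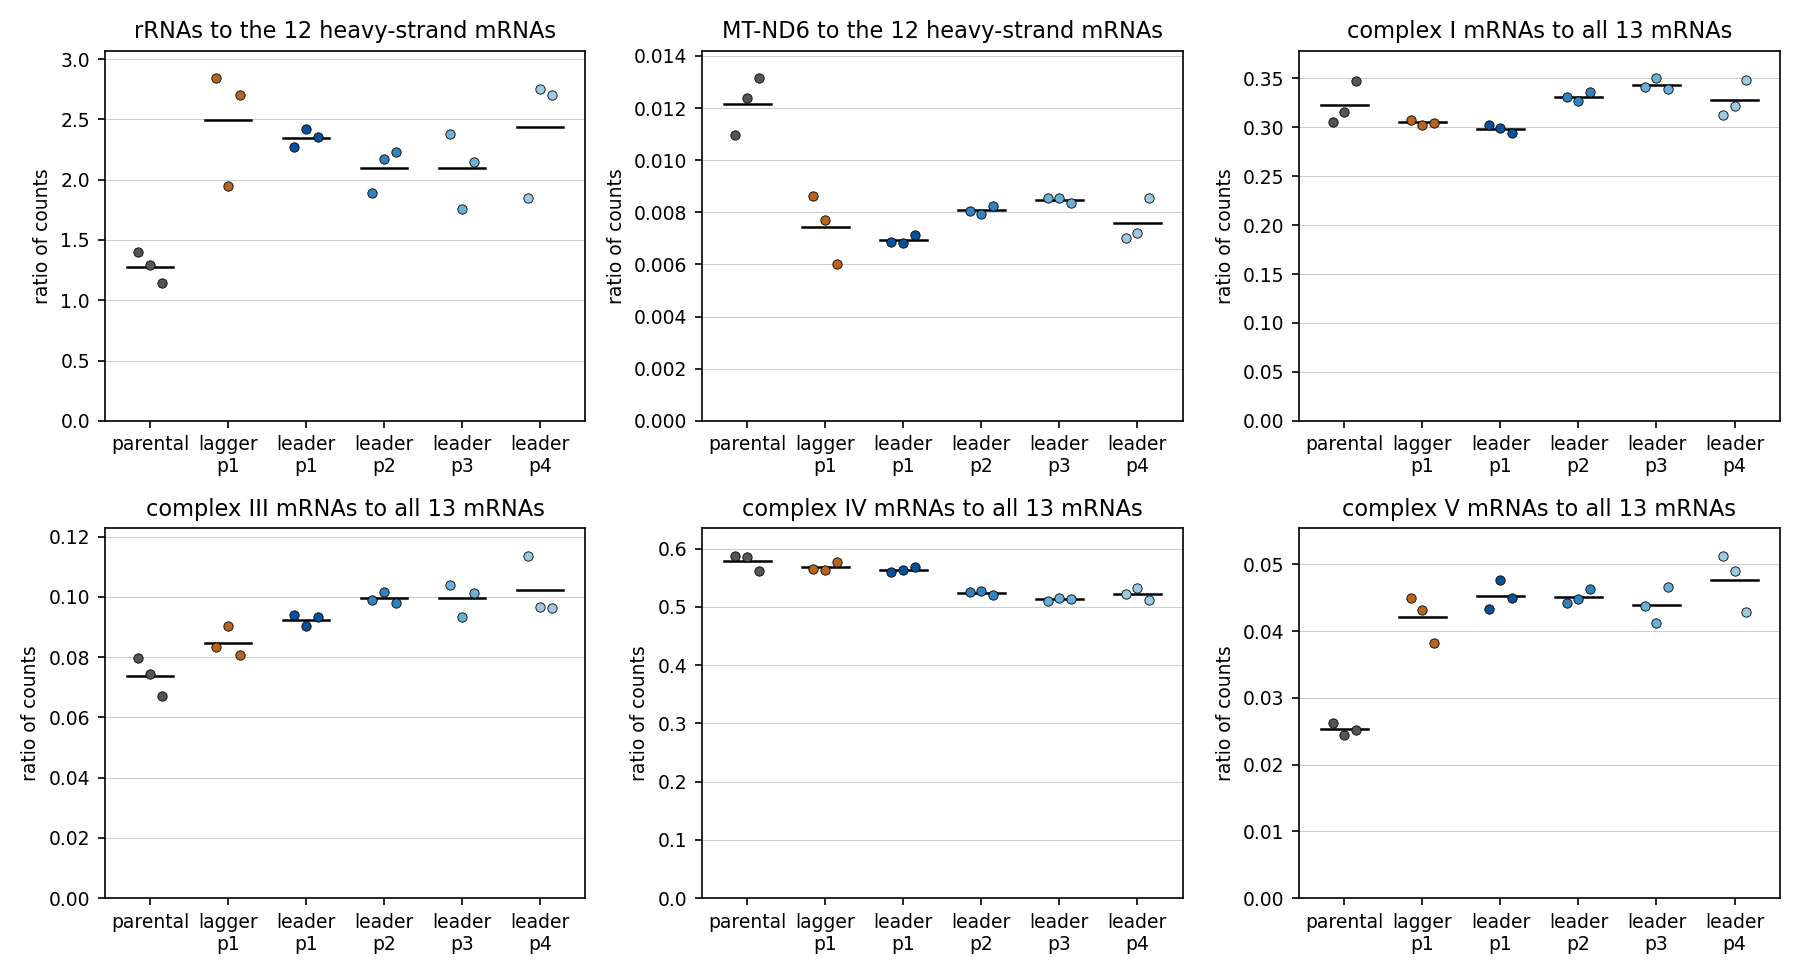
Ratios of counts within mitochondrially encoded genes in each library, without unit and with axes from 0; points are the 3 libraries of a group, ordered by replicate number, and black lines are group means. The rRNA and complex V ratios are higher and the MT-ND6 ratio is lower in all 15 injected libraries than in the 3 parental ones, and the complex I ratio overlaps.

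Leaders and laggers of passage 1 were not told apart by these genes. None of the 15 was called by edgeR or by DESeq2, none had an unadjusted p under 0.05, and the groups overlapped for all 15. Over all genes, 10 of 16187 were called in this contrast, 0.0618%, and 2338 had an unadjusted p under 0.05. The member median was 0.05 in log2, and the values ran from -0.21 for MT-ND1 to 0.25 for MT-RNR1. The 95% intervals reached from -0.69 to 0.28 for MT-ND1 and from -0.27 to 0.77 for MT-RNR1, so changes of those sizes are not excluded.

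The levels fell over the leader passages. Between passages 1 and 2 all 15 genes were lower with no overlap between groups, which held for 18.1% of all genes tested, and their median log2 change was -0.67. The edgeR test called 2 of them, MT-RNR2 at -0.94 ± 0.24 (adjusted p = 0.0405) and MT-RNR1 at -0.93 ± 0.25 (adjusted p = 0.0489), beside 3.58% of all genes called in either direction and 1.52% called lower. No member was called after leaving out leader replicate 2 or 3 of passage 1 or any replicate of passage 2, and 9 were called when only those groups were fitted. Between passages 1 and 4 all 15 were called lower, with a median of -1.22, beside 20% of all genes called and 9.17% called lower. Without passage 4 replicate 3, 9 of the 15 were called. The largest of these changes was that of MT-CO1, -1.82 ± 0.28, and the smallest that of MT-RNR1, -1.08 ± 0.25 (edgeR adjusted p = 4.09e-04 and 0.00705). MT-CO1 had 3401, 2539.6 and 2795 CPM at passage 2, 1882, 2533 and 1683 at passage 3 and 2259, 1303 and 1088 at passage 4, the last overlapping neither the passage 1 nor the parental range.

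A linear trend over the 4 passages was called for all 15, all downward, at a median of -0.39 in log2 per passage, beside 21.1% of all genes called and 9.38% called lower. The slope was -0.60 ± 0.09 per passage for MT-CO1 and between -0.47 and -0.33 for the other members. Without passage 4 replicate 3 the trend was called for 11. Without passage 3 replicate 2 it was called for all 15, at a median of -0.41 in log2 per passage. The share of gene counts in the 12 leader libraries had a Pearson r of -0.874 with passage number on the log2 scale (permutation test, two-sided, p = 1.60e-04) and a Spearman rho of -0.907 (p = 2.50e-04), 2 measures of 1 relation. These tests and the edgeR trend treat the libraries as independent, although leaders of later passages descend from earlier ones. Passage number cannot be told apart from other differences between passages, such as time or handling. The 6 libraries of passages 1 and 4 are equally far from the median passage. Without any 2 of them r ran from -0.942 to -0.818. Within the 9 libraries of passages 2 to 4, r was -0.722 and rho -0.791 (exact permutation p = 0.0226 and 0.0214). Without passage 3 replicate 2, r was -0.872 and rho -0.923 over the other 11 leader libraries (permutation p = 3.10e-04 and 2.20e-04), and -0.723 and -0.819 over the 8 of passages 2 to 4 (exact permutation p = 0.0393 and 0.0286).

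Against the parental line, all 15 were still called higher at passage 2, with a median log2 fold change of 2.39 and 29.9% of all genes called (15.1% higher). At passage 3 all 15 were called, with a median of 2.14 and 24.6% of all genes called (13.8% higher). The median was 2.10, again with 15 called, without replicate 2 of passage 3. At passage 4 the edgeR test called 14 of 15 higher, with a median of 1.92 and 27.7% of all genes called (14.8% higher). MT-CO1 did not pass at passage 4, at 0.74 ± 0.27 with an adjusted p of 0.0520, although its 3 libraries lay above the parental range, as they did for 22.6% of all genes. MT-ND6, at 0.74 ± 0.26 and adjusted p = 0.0453, and MT-ND5, at 0.72 ± 0.23 and adjusted p = 0.0317, passed narrowly by edgeR and lost the call without any 1 of the parental replicates or without replicate 1 of passage 4, MT-ND6 also without replicate 2 of passage 4. MT-RNR1 and MT-ND3 were the highest at passage 4, 2.58 ± 0.26 and 2.53 ± 0.28. These contrasts share the parental libraries, so their values are given side by side only.

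**Figure D4:**
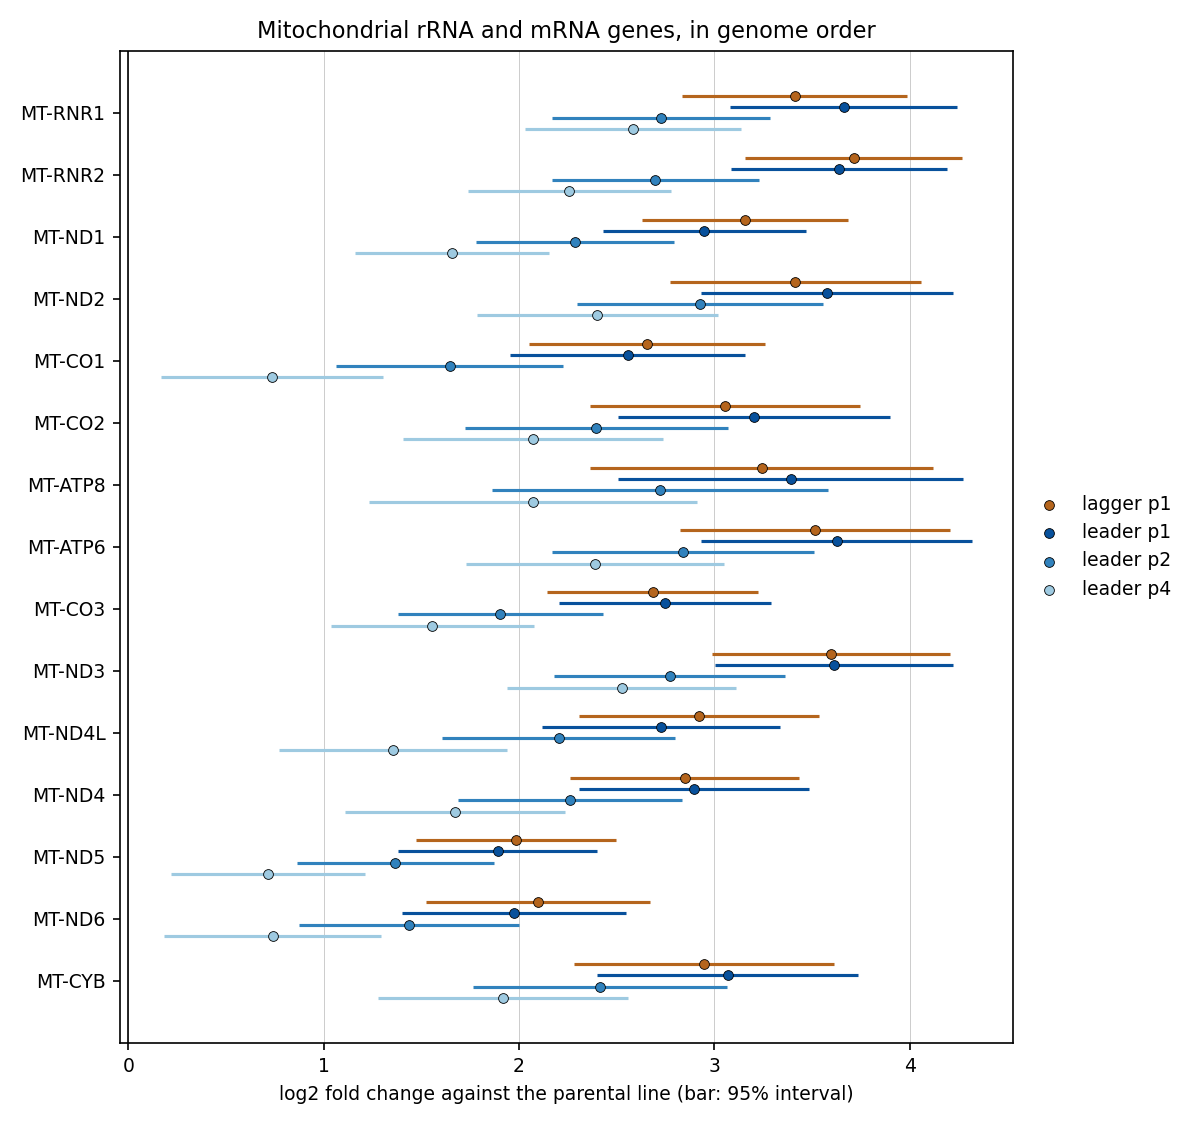
Log2 fold change of each mitochondrial rRNA and mRNA gene against the parental line in the edgeR fit, in genome order, for laggers of passage 1 and leaders of passages 1, 2 and 4; points are estimates and bars 95% intervals. All estimates lie above 0, with MT-ND5, MT-ND6 and MT-CO1 lowest at passage 4.

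The 22 transfer RNA genes, which decode the mRNAs of the mitochondrion, did not pass the filter on low counts and were not tested. They had 23 counts in all libraries together, of which MT-TL1, the leucine transfer RNA shown above, had 15, with at most 5 in 1 library. MT-TS2, MT-TV, MT-TI and MT-TC had the other 8, and the remaining 17 genes were at 0 in every library. The summed counts were 1 in the parental libraries, 7 in laggers and 8 in leaders of passage 1, then 3, 2 and 2 in the leaders of later passages. The genes are 59 to 75 bases long, and these counts are given as no measure of mature transfer RNA.

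Nuclear genes and pseudogenes that copy mitochondrial sequence had 75928 counts in all, equal to 0.474% of the member counts. Of 188 such copies in the table, 64 had counts and 11 passed the filter. Of these 11, 11 were called higher against the parental line in laggers and 11 in leaders of passage 1, and 8 at passage 4, where 21.5%, 23.2% and 14.8% of all genes tested were called higher. MTRNR2L12, a nuclear copy of MT-RNR2 with the most counts, had a mean of 21.3 CPM in the parental line, 253 in laggers and 218 in leaders of passage 1. Next were MTND4P12, at 6.48, 46.5 and 47.6 CPM, and MTRNR2L8, at 2.88, 33.6 and 24.9, then MTRNR2L9, at 0.556, 7.37 and 5.92. The copies had 0.441 to 0.575 counts per 100 member counts over the 18 libraries. Reads of such a copy and of its mitochondrial original cannot be told apart where their sequences are equal.

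Nuclear genes that serve mitochondrial gene expression were called in both directions. They are given by lists of known function, with counts of members called by edgeR at an adjusted p under 0.05. Of all genes tested, 17.8% were called lower in laggers, 22.4% in leaders of passage 1 and 12.9% in leaders of passage 4, with the shares called higher given above. The mitochondrial ribosome, 74 tested proteins that assemble on the 2 rRNAs, had 30 called higher and 3 lower in laggers, 33 and 6 in leaders of passage 1, and 11 and 7 in leaders of passage 4. Its median log2 fold changes were 0.51, 0.61 and 0.14, beside 0.09, 0.07 and 0.03 over all genes tested. In leaders of passage 1 MRPS23 rose by 1.69 ± 0.24 (SE) and MRPL20 by 1.31 ± 0.20, whereas MRPS2 changed by -1.53 ± 0.19 and MRPS27 by -0.88 ± 0.14. The passage 1 count for laggers was 18 when only the compared groups were fitted, and the passage 4 count of higher members ran from 2 to 15 over all alternatives.

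Among genes of mitochondrial translation, lower calls were more frequent than higher ones. Of 28 translation factors and aminoacyl-tRNA synthetases, 2 were called higher and 13 lower in laggers, 4 and 14 in leaders of passage 1, and 3 and 12 at passage 4. With only the compared groups fitted, the lower count in laggers was 6. LARS2 and PARS2, which charge leucine and proline transfer RNAs in mitochondria, fell in leaders of passage 1 by 1.85 ± 0.23 and 1.89 ± 0.26 in log2, and TUFM, the elongation factor, by 0.94 ± 0.18. MTIF3, an initiation factor, rose by 1.56 ± 0.28.

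Few genes of the machinery that transcribes and copies mitochondrial DNA were called higher. Of 9 genes of mitochondrial transcription, 0 were called higher and 1 lower in laggers, 1 and 1 in leaders of passage 1, and 0 and 1 at passage 4. POLRMT, the RNA polymerase, fell in leaders of passage 1 by 1.60 ± 0.32 (adjusted p = 7.42e-04, edgeR). TFAM, which packages mitochondrial DNA and starts its transcription, had a log2 fold change of 0.04 ± 0.34 in leaders of passage 1 and -0.38 ± 0.34 in laggers, and TFB2M, its partner, 0.28 ± 0.27 and -0.38 ± 0.27. Neither was called. TEFM, the elongation factor of this polymerase, was at 1.18 ± 0.38 in leaders of passage 1 (edgeR adjusted p = 0.0198), a call lost without parental replicate 3. Of 15 genes of mitochondrial DNA replication and maintenance, 2 were called higher and 6 lower in laggers and in leaders of passage 1 alike, and 1 and 6 at passage 4. POLG, the DNA polymerase, was lower by 2.00 ± 0.27 and TWNK, the helicase, by 1.12 ± 0.20 in leaders of passage 1, while SSBP1, the single-strand binding protein, was higher by 1.22 ± 0.22.

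Of 29 genes of mitochondrial RNA processing, polyadenylation and decay, 3 were called higher and 9 lower in laggers, 3 and 8 in leaders of passage 1, and 2 and 5 at passage 4. The partners LRPPRC and SLIRP, which hold and stabilise mitochondrial mRNAs, had opposite signs. In leaders of passage 1 LRPPRC was at -1.09 ± 0.32 (edgeR adjusted p = 0.0102, and 0.0634 without replicate 2 of that group) and SLIRP at 1.99 ± 0.31 (adjusted p = 1.02e-04). ELAC2, which cuts the 3′ ends of transfer RNAs, was at -1.21 ± 0.18, FASTKD5 at -1.55 ± 0.20 and the RNA helicase SUPV3L1 at -0.94 ± 0.18. Of 13 tested regulators of mitochondrial biogenesis, 0 were called higher in laggers or in leaders of passages 1 and 4, and 5, 7 and 3 were called lower. PPARGC1A, the best known of them, had counts in 1 of 18 libraries and was not tested. Its relatives PPRC1 and PPARGC1B were at -1.96 ± 0.24 and -1.89 ± 0.48 in leaders of passage 1. Of 23 tested genes of mitochondrial quality control and turnover, 4 were called higher and 7 lower in laggers, 4 and 7 in leaders of passage 1, and 4 and 5 at passage 4. The protease gene LONP1 was at -1.85 ± 0.23 in leaders of passage 1.

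**Figure D5:**
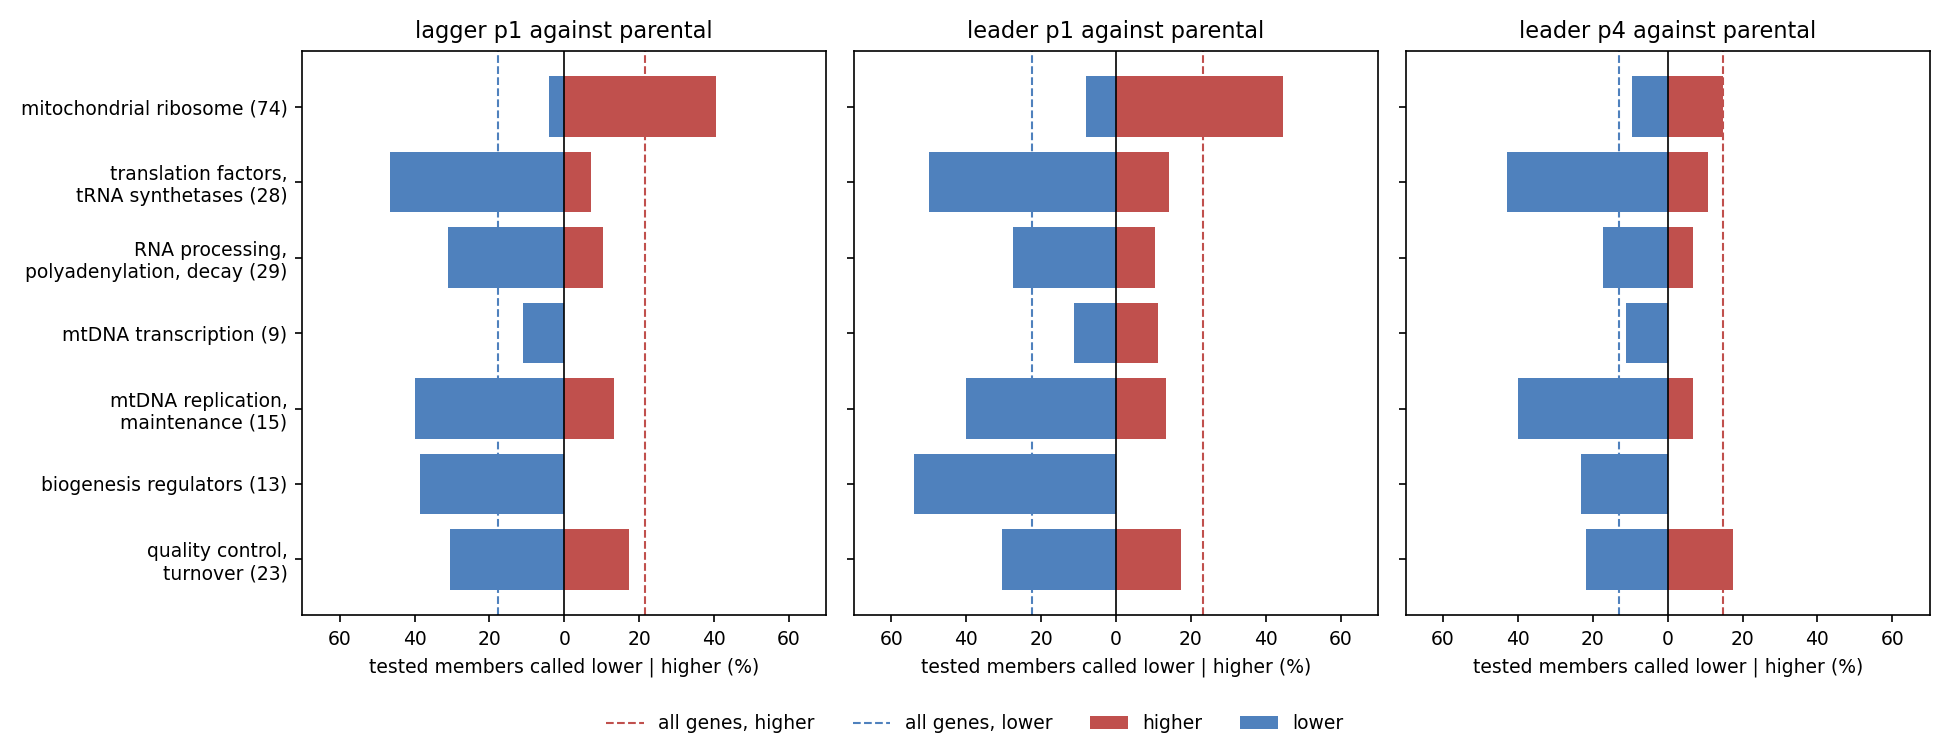
Percentage of the tested members of each nuclear gene list (number in parentheses) called higher (right, red) or lower (left, blue) against the parental line by edgeR at an adjusted p under 0.05; dashed lines are the percentages of all genes tested. At passage 1 the bar for higher members passes the line for all genes in the mitochondrial ribosome list alone, with 30 of 74 in laggers and 33 of 74 in leaders.

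From passage 1 to passage 4 of the leaders, all 15 mitochondrial genes were called lower. The mitochondrial ribosome had 1 member called higher and 10 lower, where 9.17% of all genes were called lower. Its count of lower members ran from 3 to 27 over the alternatives. The other 6 lists had between 0 and 4 members called higher and 0 lower, where 10.8% of all genes were called higher. POLG was at 1.42 ± 0.27, ESRRA, a nuclear receptor that drives mitochondrial genes, at 1.68 ± 0.26 and MRPS23 at -1.28 ± 0.24 in this contrast (edgeR adjusted p = 0.00198, 4.99e-04 and 0.00171).

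Several other measures moved with the injected libraries, and their part in the mitochondrial values was not tested. The list of 15 stress and immediate early genes summed to 1545 to 2046 CPM in parental libraries and 6975 to 14332 in injected ones. The markers of the pancreatic line summed to 6651 to 7895 CPM in parental libraries and 12428 to 28927 in injected ones. KRT8 went from a mean of 2436 CPM in the parental line to 8099 in leaders of passage 1, and KRT18 from 2403 to 8979. VIM went from 1822 to 2105 and CDH1 from 0 to 8.68 in the same groups. Reads with more than 1 alignment, given above, were also higher in every injected library. The 12 markers of striated muscle, a tissue rich in mitochondria, of which 7 were tested, summed to 4.34 to 7.75 CPM in the parental line, 14.4 to 411.6 in laggers, 84.1 to 137.8 in leaders of passage 1 and 4.16 to 6.41 at passage 4. At passages 2 and 3 the sums were 12.4 to 18.9 and 6.48 to 9.82. By group means, MB and TNNT3 carried the passage 1 sums, and a single lagger library held 6899 of the 7312 lagger counts of MB. TTN was the highest in the parental line and at passage 4, at 3.20 and 3.39 CPM. DES went the other way, at 2.03 CPM in the parental line, 0.201 in laggers, 0 in leaders of passage 1 and 0.113 at passage 4. The defining genes CKM, MYH1 and MYH7 were at or near 0. The 10 fibroblast markers summed to 125 to 238 CPM in parental and 222 to 2440 in injected libraries, with FAP near 0, but different genes carried the sums. The collagen gene COL1A1 had a mean of 157 CPM in the parental line, 46.6 in laggers, 18.7 in leaders of passage 1 and 6.52 at passage 4. COL3A1 had 6.94, 869, 978 and 282 CPM in the same groups and COL1A2 0.881, 618, 738 and 70.01. COL3A1 and COL1A2 were thus above their parental level at passage 4 too. DCN had 0.195, 9.51, 4.26 and 0.101 CPM in these groups and LUM 0.121, 8.44, 4.11 and 0.0278. DCN and LUM were thus above their parental means at passage 1. At passage 4 they were below them, on few counts. DCN had 22 counts in the parental line and 7 at passage 4, and LUM 14 and 2. PDGFRA had 0.113, 2.55, 10.4 and 13.7 CPM and PDGFRB 0.844, 0.310, 0.0749 and 0.281. The 12 Schwann cell markers summed to 602 to 784 in parental and 208 to 459 in injected libraries, with S100B and SOX10 near 0. CNP and MBP carried these sums, at means of 443 and 213 CPM in the parental line and 196 and 14.2 in leaders of passage 1. EGR2 went the other way, from a mean of 0.0423 CPM in the parental line to 10.8 in laggers and 3.45 in leaders of passage 1, as did CDH19, at 0, 1.25 and 1.37. The 10 leukocyte markers summed to 1.86 to 5.14 CPM in parental and 2.27 to 33.2 in injected libraries, the highest sums carried by ITGAM at passage 4. PTPRC was at 0 in the parental line and in laggers. Its means were 2.22, 3.09, 2.56 and 0.677 CPM in leaders of passages 1, 2, 3 and 4. The 7 endothelial markers summed to at most 13.6 and the 6 neuron markers to at most 23.0 CPM in any library. The 5 erythroid markers summed to at most 3.11 CPM outside passage 3 replicate 2, and the adipocyte marker ADIPOQ was at 0.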

How the data were processed

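The libraries, 18 in 6 groups of 3, hold MiaPaCa-2 RNA amplified with SMART-Seq v4 and read as paired 50-base reads, per the labels' protocols. The deposited table gives raw counts per gene and library. The submitters' processing notes name cutadapt 1.6, STAR 2.5.0a, HTSeq 0.5.3 and DESeq 1.22.1 as the authors' tools. They used a build, annotation and counting mode not given in the sources used here. Entries without a gene name entered neither library sizes nor tests.

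The 37 members were taken by symbol, and members and gene lists were chosen with earlier results of these data known. Of the listed genes 283 were found in the table and 2 (FASTKD4 and PECAM1) were not matched. The counts were tested with edgeR 4.0.16 in R 4.3.3. After TMM (trimmed mean of M-values) scaling and edgeR's expression filter, 16187 genes were tested and 41258 were not. A single quasi-likelihood model covered all 18 libraries, each group with its own mean, and p-values were adjusted by Benjamini-Hochberg over all tested genes in each of 9 comparisons, called at 0.05. The biological coefficient of variation was 35.5%. The fit was also run on simulated counts. Far fewer genes changed there than were called against the parental line here, so nothing is concluded from that run. Intervals of log2 fold changes are 95% intervals. Single values per library were compared by exact permutation tests (SciPy 1.17.1), and correlations over 12 libraries used 100000 resamples. A ratio of transfer RNA counts could not be computed, because several libraries had 0. Matches of 50-base windows were searched in GENCODE 29 transcripts. DESeq2 1.42.0 and other settings served as alternatives. No libraries of a group were identical within counting error (lowest chi-square per degree of freedom 20.3).

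All rRNA and mRNA members are named. The naming rule allowed, per list, up to 4 genes of smallest adjusted p in laggers and in leaders of passages 1 and 4, with PPARGC1A, TFAM, POLRMT, TFB2M, LRPPRC, TWNK and POLG in any case, and the 4 nuclear copies with the most counts. Some of these go unnamed for brevity. Some members of the nuclear and marker lists are counted in the lists but not reported here by name.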

Additional observations from a re-analysis of the deposited data

How the results depend on the processing

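Alternatives were the size factors of DESeq2 in edgeR, the DESeq2 Wald test, no filter on low counts, scaling from nuclear genes only, a replicate block, a fit of only the compared groups and leaving out each library in turn. Against the parental line all 15 members were called higher under all of them for laggers and leaders of passages 1, 2 and 3. At passage 4 the main 14 became 12 with no filter, 13 with nuclear scaling or only the compared groups, 15 with DESeq2 or the replicate block, and 12 to 15 when a library was left out. For passage 2 against passage 1 of the leaders the main 2 became 5 with DESeq2, 4 with no filter, 1 with the replicate block, 9 with only the compared groups and 0 to 1 when a library was left out. For passage 4 against passage 1 the main 15 ran from 9 to 15 when a library was left out, and the trend from 11 to 15. The cause was not tested.

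Replicate numbers did not pair the samples: deviations of same-numbered libraries correlated from -0.408 to 0.401 over 45 pairs of groups, with 8 over 0.1. The replicate block changed no other count of members.

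Among the ratios against the parental line, the complex IV difference of -0.10 ran from -0.13 to -0.092 without 1 library. By group it was -0.025 in laggers, -0.036 in leaders of passage 1, -0.14 at passage 2, -0.17 at passage 3 and -0.15 at passage 4. The complex I difference ran from -0.044 to 0.047 and was -0.079 in laggers, -0.11 in leaders of passage 1 and 0.093 at passage 3. That of complex III was 0.20 in laggers, and that of MT-ND6 was -0.81 in leaders of passage 1 and -0.52 at passage 3. In an alternative chosen after seeing the data, passage 3 without its replicate 2, the differences were -0.18 for complex IV, 0.079 for complex I, 0.48 for complex III and -0.52 for MT-ND6.

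Between leaders and laggers of passage 1, where no member was called, leaving out 1 library turned the sign of 12 members, with log2 values of MT-ND6 -0.35 to 0.12, MT-CO2 -0.12 to 0.34, MT-CYB -0.057 to 0.24, MT-ND2 -0.083 to 0.34, MT-ND5 -0.31 to 0.13, MT-CO1 -0.30 to 0.064, MT-ND3 -0.11 to 0.12, MT-ND4 -0.16 to 0.18, MT-ATP6 -0.14 to 0.28, MT-CO3 -0.092 to 0.20, MT-RNR2 -0.31 to 0.20 and MT-ATP8 -0.20 to 0.48. TFAM, also not called, was at -0.0092 in leaders of passage 1 and -0.019 at passage 4 with no filter, and ran from -0.22 to 0.32 and -0.22 to 0.31 without 1 library. TFB2M at passage 4 ran from -0.40 to 0.037. The transfer RNA genes, with 23 counts in all, were too low to be tested.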
